A study of Danio rerio with 6 samples.

Results

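Proteins that carry sterols and other lipids between the membranes of a cell were followed in the adult zebrafish telencephalon with and without a stab wound. The genes were found by name among the 32520 Ensembl identifiers counted in each library. Names that begin with *osbp*, *stard*, *gramd1*, *npc1* or *npc2* were taken, together with *star*, *scp2a*, *scp2b*, *cert1a* and *cert1b*, and 40 identifiers were found. They comprise 15 oxysterol-binding protein genes (OSBP family), 15 genes named for the START domain with *star*, *cert1a* and *cert1b* (START family), 4 *gramd1* genes, 4 Niemann-Pick C genes (NPC family) and 2 *scp2* genes. The name tables carry 2 identifiers as GRAMD1B and 2 as STARD13 without a paralogue letter, and these are given with their identifiers. All 40 genes had enough reads to be tested.

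Most cholesterol that enters a cell with lipoproteins or engulfed membrane is released in the lysosome. There the soluble NPC2 hands it to the membrane protein NPC1, which passes it out. Further transport runs largely through carriers that work where membranes touch. OSBP-related proteins exchange sterol or phosphatidylserine against a phosphoinositide, GRAMD1 proteins (Asters) bring plasma membrane cholesterol to the endoplasmic reticulum, and START proteins carry cholesterol, phosphatidylcholine or ceramide in a closed pocket. These roles are known mainly from mammalian cells. In the brain, cholesterol is made locally, and much of it lies in myelin.

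One telencephalic hemisphere of an adult fish was wounded with a syringe needle, and the opposite hemisphere without a wound was the control. Polyadenylated RNA of 3 control and 3 injured hemispheres at 5 days post lesion (dpl) was sequenced, 1 library per hemisphere, and the only treatment that differs in the labels is the injury. Strain, age and sex are not given in the sources used here. Between 59675791 and 91663196 reads were counted on genes per library. Levels are CPM (counts scaled to a fixed number of reads on genes, after TMM normalization), which depend on transcript length. They are compared between libraries, for a gene, a sum of genes, or a ratio or share between paralogues. The size of such a sum, ratio or share itself also depends on transcript lengths. Log2 fold changes (log2FC) are those of injured over control, with a standard error (SE), and adjp is the *p*-value of edgeR's quasi-likelihood test after Benjamini-Hochberg adjustment over 22558 genes. Genes with an adjp below 0.05 are called changed.

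The libraries carried markers of neurons, glia, leukocytes and endothelium in both conditions. The summed CPM of 10 neuronal markers lay between 8676 and 8742 in control and between 7547 and 7940 in injured hemispheres, and 5 of the 10 were called lower. For microglia and leukocytes, 13 of 14 tested markers were called higher, and their sum rose from 657 to 717 CPM in control to 2127 to 2564 CPM in injured hemispheres. One of the MPEG1 identifiers in this list was at 0 in every library. Radial glial markers were called higher for 5 of 11 (4793 to 5021 against 5445 to 5906 CPM), oligodendrocyte markers for 6 of 9 (427 to 568 against 573 to 799 CPM) and endothelial markers for 6 of 7 (141 to 154 against 195 to 226 CPM). A symbol without its paralogue letter can fit several genes. For neurons, radial glia, and microglia with leukocytes, 9, 9 and 13 chosen markers thus gave 10, 12 and 15 identifiers. Some of these may not be the intended copy. The radial glial sum rests mainly on its most abundant genes. Injured replicates 1 and 3 stood apart. A list of pineal and photoreceptor genes summed to 203 and 470 CPM there, to 11.0 CPM in injured replicate 2 and to 8.86 to 11.3 CPM in control hemispheres, with none of its 14 identifiers at 0 in any library.

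Upon injury, 7 of the 40 transfer genes were called higher and 4 lower. Among all genes tested, 11.6% were called higher and 4.82% lower, against 17.5% and 10% of the transfer genes. The higher genes were *npc2.2*, *npc2.1*, *npc1*, *osbpl1a*, *stard8*, *stard13* (ENSDARG00000098954) and *cert1b*, and the lower ones *npc1l1*, *osbp2a*, *cert1a* and *osbpl5*. The median log2FC of the 40 genes was 0.05, against -0.0038 over all genes. Most changes were small, and 15 of the 40 genes moved by less than 10%. Apart from *npc2.2*, no called gene had an absolute log2FC above 1. When reads were scaled by library size alone, the split became 10 higher and 1 lower, against 13.5% and 2.08% of all genes. In that fit *osbpl9*, *scp2a* and *scp2b* were added, and *osbp2a*, *osbpl5* and *cert1a* were lost. Without injured replicates 1 and 3, which leaves a single injured library assumed to vary as the controls do, 4 genes were called higher (*npc1*, *npc2.1*, *npc2.2* and *osbpl1a*) and 0 lower by edgeR, against 6.22% and 1.25% of all genes. With all 6 libraries, 10 genes were higher and 7 lower at an unadjusted *p*-value below 0.05 in edgeR. The share of all genes at that limit is not given, so this and later unadjusted counts have no level to be set against. DESeq2 called 7 higher and 5 lower, against 14.2% and 9.16% of all genes. With Bonferroni adjustment, which DESeq2 passed for 3.58% of all genes higher and 0.803% lower and edgeR for 0.226% higher and 0% lower, DESeq2 called 4 of the 40 higher and 0 lower and edgeR 1 higher (*npc2.2*) and 0 lower. With each library left out, edgeR called 3 to 5 of the 40 higher and 0 to 3 lower, where 6.17% to 9.24% of all genes were higher and at most 4% lower.

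For 20 of the 40 genes the conditions did not overlap, 11 of them higher and 9 lower after injury. Over all genes tested, the conditions did not overlap for 35.8%, with 20.3% higher and 15.5% lower. Libraries of both conditions that carry one replicate number deviated together, as described with the processing, and in all 3 such pairs 17 of the 40 genes were higher and 14 lower. Over all genes these shares were 31.5% and 31.6%. When edgeR was given the replicate number as a blocking term, 12 of them were called higher and 10 lower, against 19.9% and 16.2% of all genes. These shares also stand beside each gene described below by its pairs or by a call with the replicate block. The median absolute log2FC of the 40 genes was 0.19, against 0.16 over all genes.

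**Figure D1:**
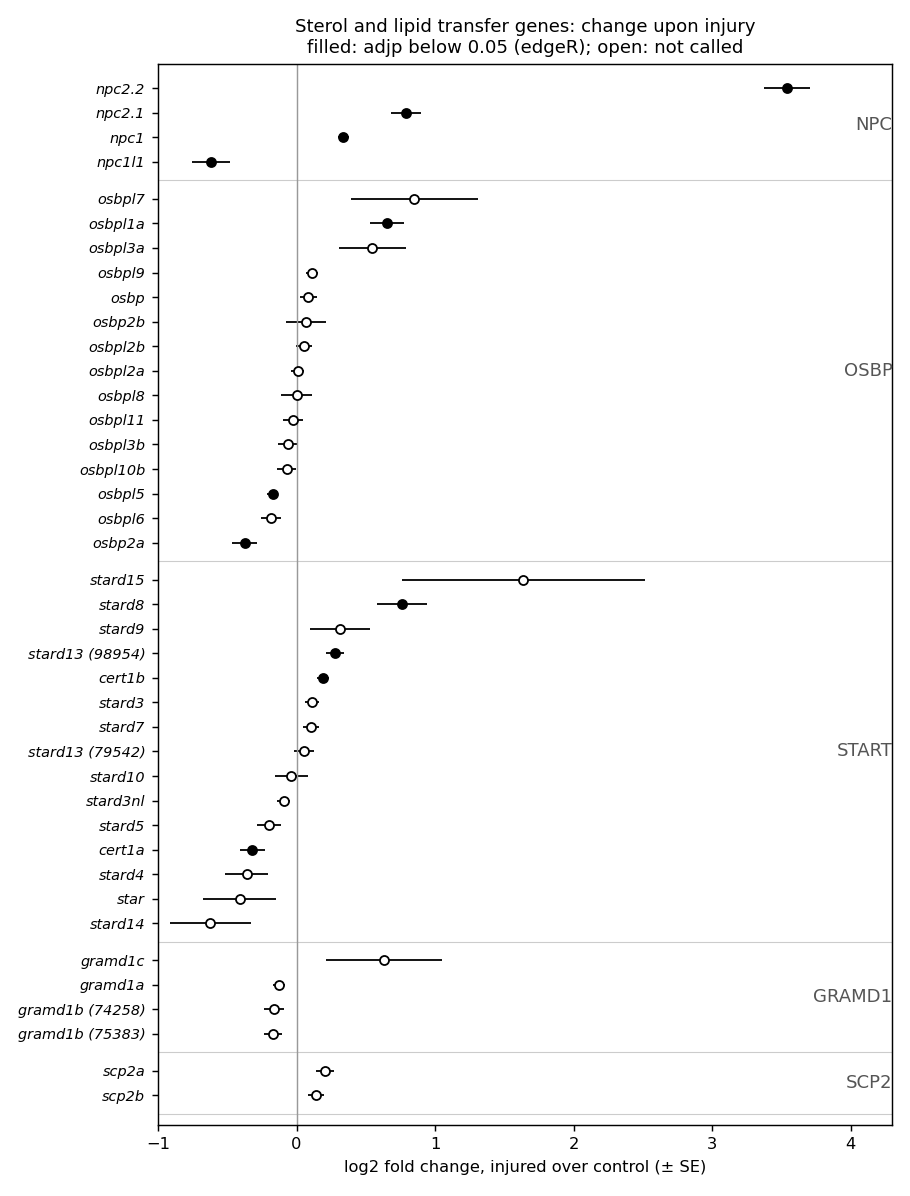
Log2FC of injured over control hemispheres for the 40 sterol and lipid transfer genes, by family, with standard errors (3 libraries per condition). Filled points are called by edgeR, 7 to the right and 4 to the left of 0, and numbers in brackets are the last digits of the Ensembl identifier. The value of *npc2.2*, 3.54, stands far to the right of all other called genes.

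All 4 genes of the NPC family were called changed, against 11.6% of all genes called higher and 4.82% lower. The lysosomal pair was higher, with *npc1* and both *npc2* genes, while *npc1l1*, the relative of NPC1 that takes up dietary sterol in the mammalian intestine, was lower. The largest change of all 40 genes was that of *npc2.2* (ENSDARG00000096979, also *zgc:193725*). Its level was 0.343, 0.456 and 0.428 CPM in control replicates 1 to 3 and 4.29, 5.11 and 5.01 CPM in injured replicates 1 to 3. The conditions were far apart and the injured libraries close to each other, with 20, 38 and 33 reads in control and 363, 479 and 323 reads in injured libraries. The log2FC was 3.54 (adjp = 2.45e-04, SE 0.17), an 11.6-fold increase, and its range was 3.44 to 3.62 when libraries were left out one by one. With injured replicate 2, where the pineal and photoreceptor list was at 11.0 CPM, as the only injured library it was 3.64.

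For *npc2.1* (ENSDARG00000090912), the levels were 20.4, 23.1 and 19.3 CPM in control and 35.1, 41.2 and 32.2 CPM in injured replicates 1 to 3. Replicate 2 was the highest in both conditions, and no injured library was as low as any control. The log2FC was 0.79 (adjp = 0.00451, SE 0.11). In the RefSeq assembly GRCz12tu, *npc2.1* and *npc2.2* are neighbours on the same chromosome with 0 annotated genes between them. How reads were divided between these related copies was not tested. The share of *npc2.2* in the reads of both genes was 1.65% (95% exact binomial interval 1.01% to 2.54%), 1.94% (1.37% to 2.65%) and 2.17% (1.50% to 3.03%) in control replicates 1 to 3. In injured replicates 1 to 3 it was 10.9% (9.84% to 12.0%), 11.0% (10.1% to 12.0%) and 13.4% (12.1% to 14.9%). These intervals cover counting error only. The share rose in each pair, and the log2 ratio of *npc2.2* over *npc2.1* shifted by 2.49 with 0.1 CPM added to each level and by 2.77 with nothing added. This pair was singled out after its values had been seen, so the shift is a description.

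The lysosomal membrane protein gene *npc1* was at 68.0, 70.9 and 67.8 CPM in control and 88.6, 85.6 and 87.0 CPM in injured replicates 1 to 3. The spread within each condition was small against the step between them. The log2FC was 0.34 (adjp = 0.00307, SE 0.040), an increase of 26.4%. For *npc1l1*, 5.14, 4.11 and 4.42 CPM in control stood against 3.20, 3.07 and 2.60 CPM in injured replicates 1 to 3. No injured library reached the lowest control, with a log2FC of -0.62 (adjp = 0.0237, SE 0.14). This call was lost without control replicates 1 and 3 and without injured replicates 2 and 3, where adjp was 0.0797, 0.0683, 0.0600 and 0.0674, while *npc1*, *npc2.1* and *npc2.2* stayed called with each library left out. Summed over the family, the level went from 94.8 ± 3.40 CPM in control to 131 ± 4.11 CPM after injury (SD, n = 3 each). The summed markers of microglia and leukocytes, radial glia, oligodendrocytes and endothelium given above moved in the same direction as the 3 lysosomal genes. The part of any of these cell types in these increases was not tested. In bulk RNA, a change in the number of cells of a type and a change in transcripts per cell cannot be told apart.

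**Figure D2:**
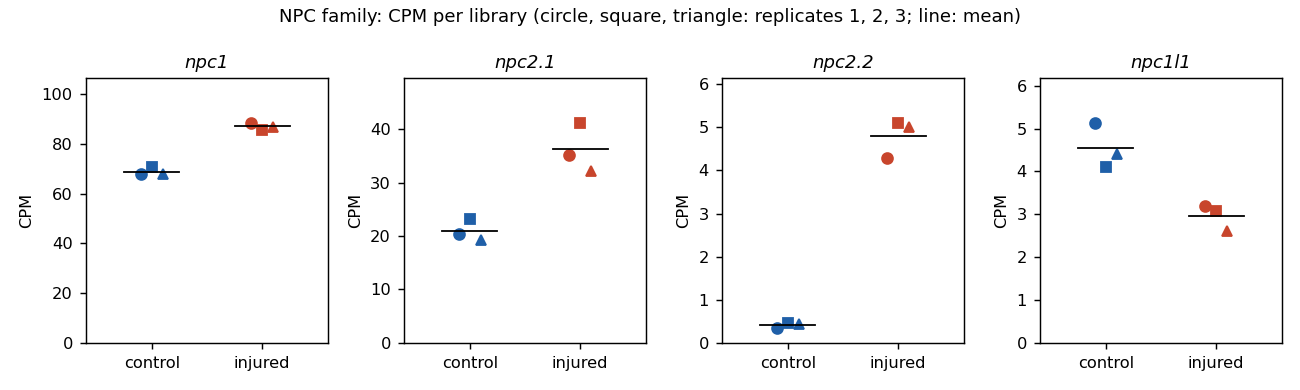
CPM of the 4 NPC genes in each of the 3 control and 3 injured libraries, with axes that start at 0 and the mean as a line. For *npc2.2* the control libraries lie at 0.343 to 0.456 CPM and the injured libraries at 4.29 to 5.11 CPM, and for *npc1l1* all injured libraries lie below all control libraries.

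Short windows that resemble the sterol regulatory element, the stretch to which Srebf2 binds, are listed in a supplementary table of the study for *osbpl1a* and *npc1l1*. The search covered only promoters of genes that the study itself had called changed, so transfer genes outside that set cannot be judged from it. The study names *npc1* and NPC2 among its raised transporters, and no window is listed for *npc1*, *npc2.1* or *npc2.2*. The windows are printed because these members moved in opposite directions upon injury and share the beginning of a window, the 6 bases in capitals:
osbpl1a: ATCACAccat
npc1l1: ATCACAtgat
npc1l1: ctggcctgat
These are matches of letters over 10 bases and do not show binding. The study searched both strands for set motifs, so a shared beginning can come from the search itself. The strand of each window is not given here.

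Of the 15 OSBP family genes, 1 was called higher and 2 lower, against 11.6% and 4.82% of all genes. The other 12 were not called. The higher gene was *osbpl1a*, whose long mammalian product sits on late endosomes and responds to their cholesterol. Its levels were 9.07, 12.2 and 10.2 CPM in control and 14.9, 17.8 and 16.9 CPM in injured replicates 1 to 3. Within both conditions replicate 1 was the lowest and replicate 2 the highest, and the conditions did not overlap. The log2FC was 0.65 (adjp = 0.0123, SE 0.12). The adjp was 0.0518 without control replicate 3 and 0.0117 to 0.0381 without each of the other libraries.

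The called decreases in this family were modest. The levels of *osbp2a*, a relative of OSBP itself, were 7.15, 6.67 and 6.23 CPM in control and 5.23, 5.12 and 5.11 CPM in injured replicates 1 to 3. The injured libraries were nearly equal and below all controls, with a log2FC of -0.37 (adjp = 0.0296, SE 0.088). For *osbpl5*, which in mammals delivers phosphatidylserine to the plasma membrane, 70.6, 71.6 and 70.9 CPM in control stood against 64.3, 63.2 and 61.5 CPM in injured replicates 1 to 3. The conditions did not overlap, and the log2FC was -0.17 (adjp = 0.0262, SE 0.039), a decrease by 11.3%. With a single library left out, the adjp of *osbp2a* was 0.0522 to 0.103 whichever library it was. That of *osbpl5* was 0.0397 without injured replicate 1 and 0.0737 to 0.0923 without each of the others.

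The remaining 12 genes of the family were not called. The most changed of them was *osbpl7*, at 2.06, 1.46 and 2.05 CPM in control and 3.83, 1.24 and 5.01 CPM in injured replicates 1 to 3. Its injured replicates 1 and 3 were above all controls and injured replicate 2 was below all of them. These are the libraries that differed in pineal and photoreceptor transcripts (203, 11.0 and 470 CPM), and the part of those cells in the values of *osbpl7* was not tested. Its log2FC of 0.85 (adjp = 0.262, SE 0.46) became 1.25 (adjp = 0.0172) without injured replicate 2 and -0.57 (adjp = 0.316) without injured replicates 1 and 3.

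The other gene of low level, *osbpl3a*, was at 1.15, 0.852 and 0.855 CPM in control and 1.76, 1.07 and 1.33 CPM in injured replicates 1 to 3. The conditions overlapped, with a log2FC of 0.55 (adjp = 0.174, SE 0.24), and it was called with the replicate block (adjusted *p* = 0.0315). Its paralogue *osbpl3b* had a log2FC of -0.06 (SE 0.071). For *osbp*, the founding member that moves cholesterol from the endoplasmic reticulum to the Golgi, the log2FC was 0.09 (adjp = 0.425, SE 0.064). The values for *osbpl2a*, *osbpl2b*, *osbpl8*, *osbpl10b*, *osbpl11* and *osbp2b* lay between -0.07 and 0.07. For *osbpl9* and *osbpl6*, the log2FC values of 0.11 and -0.18 missed the threshold (adjp = 0.134 and 0.141) but were called with the replicate block (adjusted *p* = 0.0223 and 0.0304). The family summed to 365 ± 4.55 CPM in control and to 369 ± 2.51 CPM after injury (SD, n = 3 each), and these ranges overlapped.

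Of the 15 START family genes, 3 were called higher and 1 lower, against 11.6% and 4.82% of all genes. The other 11 were not called. Both paralogues of the ceramide transfer protein, which carries ceramide from the endoplasmic reticulum to the Golgi for sphingomyelin synthesis, were called, and in opposite directions. The levels of *cert1a* (ENSDARG00000024325) were 21.6, 18.8 and 22.0 CPM in control and 17.2, 15.2 and 17.7 CPM in injured replicates 1 to 3. Replicate 2 was the lowest in both conditions and the highest injured library was below the lowest control. The log2FC was -0.32 (adjp = 0.0491, SE 0.088), and the call was lost when only genes with a mean normalized count above 100 were tested (adjp = 0.0595) or when reads were scaled by library size alone (adjp = 0.0880).

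The levels of *cert1b* (ENSDARG00000102372) were 39.5, 39.3 and 41.2 CPM in control and 46.5, 44.8 and 45.5 CPM in injured replicates 1 to 3. Here the lowest injured library was above the highest control, with a log2FC of 0.19 (adjp = 0.0291, SE 0.045). The log2 ratio of *cert1a* over *cert1b*, which the scaling between libraries hardly touches, was -0.87, -1.06 and -0.90 in control and -1.43, -1.55 and -1.36 in injured replicates 1 to 3. The ratio fell by 0.51, from -0.94 ± 0.10 to -1.45 ± 0.097 (SD, n = 3 each), with no overlap. In an exact two-sided permutation test its *p*-value was 0.1, the smallest that 3 against 3 libraries can give, and 0.525 after adjustment over 7 paralogue pairs. With 1 library left out, the adjp of *cert1a* was 0.0398 without control replicate 2 and 0.0747 to 0.148 without each of the others, and that of *cert1b* was 0.0611 to 0.104. With the replicate block both were called, at an adjusted *p* of 0.00183 and 0.00674.

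The other called START genes were *stard8* and one of the *stard13* genes. The levels of *stard8* were 1.37, 1.87 and 1.399 CPM in control and 2.24, 2.88 and 2.76 CPM in injured replicates 1 to 3, without overlap. The log2FC was 0.76 (adjp = 0.0308, SE 0.18). The levels of *stard13* (ENSDARG00000098954) were 27.6, 25.4 and 24.0 CPM in control and 32.6, 30.9 and 29.9 CPM in injured replicates 1 to 3. Replicate 1 was the highest in both conditions and the conditions did not overlap, with a log2FC of 0.28 (adjp = 0.0329, SE 0.068). The other *stard13* gene (ENSDARG00000079542) had overlapping levels and a log2FC of 0.06 (adjp = 0.672, SE 0.072). Their log2 ratios in the 6 libraries overlapped between conditions, and the exact permutation *p*-value for a difference between the paralogues was 0.3. The adjp of *stard8* was 0.0301 and 0.0356 without control replicate 2 and injured replicate 1 and 0.0845 to 0.107 without each of the others, and that of *stard13* was 0.0408 without control replicate 1 and 0.0568 to 0.107 without each of the others.

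**Figure D3:**
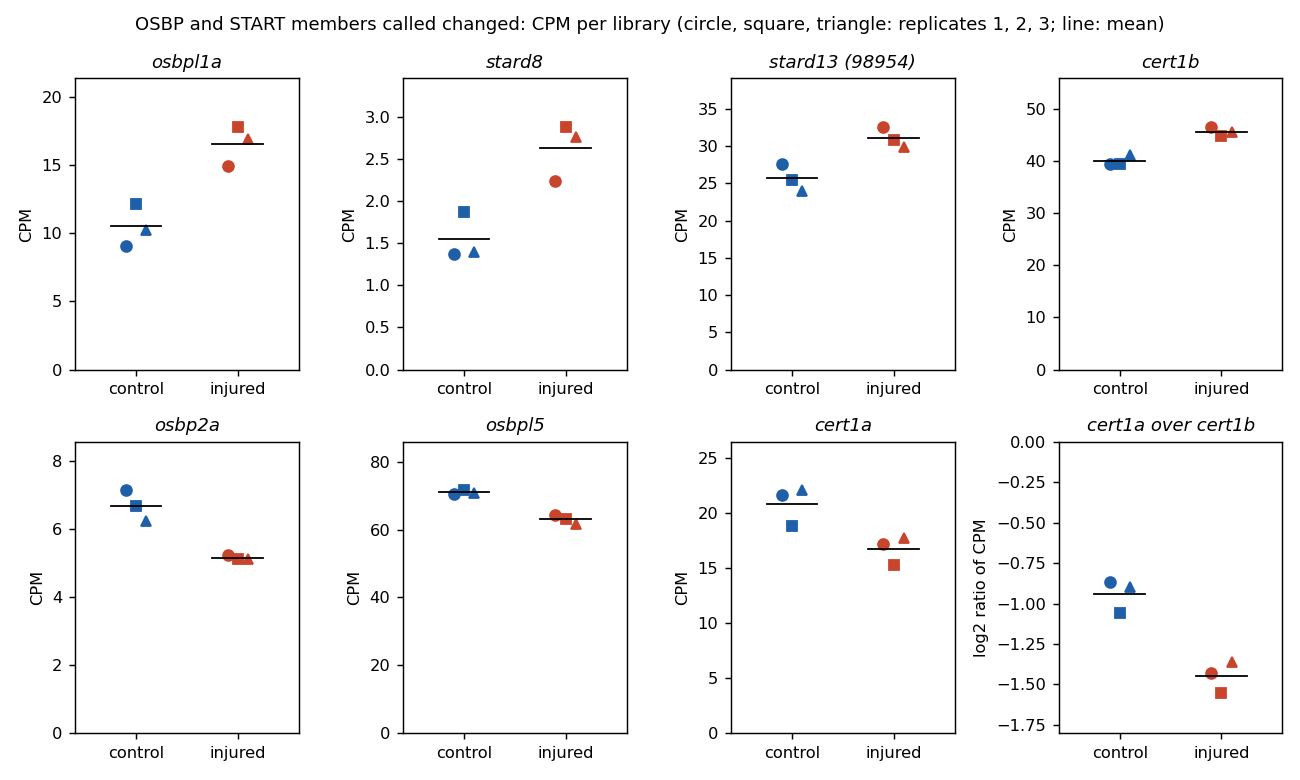
CPM of the 7 called genes of the OSBP and START families in each of the 3 control and 3 injured libraries, with axes that start at 0 and the mean as a line. The last panel shows the log2 ratio of *cert1a* over *cert1b*, from -1.06 to -0.87 in control and from -1.55 to -1.36 in injured libraries.

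Among the 11 START genes that were not called, the cholesterol carrier genes *star* and *stard4* had negative log2FC values. The gene *star*, whose product brings cholesterol into mitochondria for steroid synthesis, was scarce, with 41 to 104 reads per library. Its log2FC was -0.41 (adjp = 0.348, SE 0.26) and the conditions overlapped. For *stard4*, a soluble cholesterol carrier, 12.4, 10.4 and 14.5 CPM in control stood against 9.25, 8.40 and 11.5 CPM in injured replicates 1 to 3. The conditions overlapped, yet the injured library was lower in all 3 pairs with the same replicate number. The log2FC was -0.36 (adjp = 0.166, SE 0.15), and with the replicate block the adjusted *p* was 0.00269.

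The late endosomal *stard3* and its relative *stard3nl*, whose product lacks the START domain, had log2FC values of 0.11 (SE 0.051) and -0.09 (SE 0.046). For *stard5* and *stard7*, the latter a phosphatidylcholine carrier to mitochondria, the values were -0.20 (SE 0.088) and 0.10 (SE 0.059), and for *stard10*, a carrier of phosphatidylcholine and phosphatidylethanolamine, -0.04 (SE 0.12). None of these 5 genes was called by edgeR, DESeq2 or with the replicate block. The levels of *stard14* were 0.857, 1.06 and 0.635 CPM in control and 0.649, 0.619 and 0.372 CPM in injured replicates 1 to 3. They were lower in each pair but overlapped, with a log2FC of -0.62 (adjp = 0.201, SE 0.29), and adjusted *p* = 0.0315 with the replicate block. For *stard15*, 0.154, 0.108 and 0.0130 CPM in control stood against 0.579, 0.0960 and 0.155 CPM in injured replicates 1 to 3. The high value came from 49 reads in injured replicate 1, while all other libraries held 1 to 10 reads, and the log2FC of 1.64 (adjp = 0.260, SE 0.88) was 0.46 without that library. The transcripts of *stard9*, which in mammals encodes a kinesin, were at 18.5, 27.8 and 22.9 CPM in control and 22.3, 37.7 and 25.9 CPM in injured replicates 1 to 3. Replicate 2 was the highest in both conditions, and the step was upward in all 3 pairs. The log2FC was 0.31 (adjp = 0.387, SE 0.22), and with the replicate block the adjusted *p* was 0.00710.

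**Figure D4:**
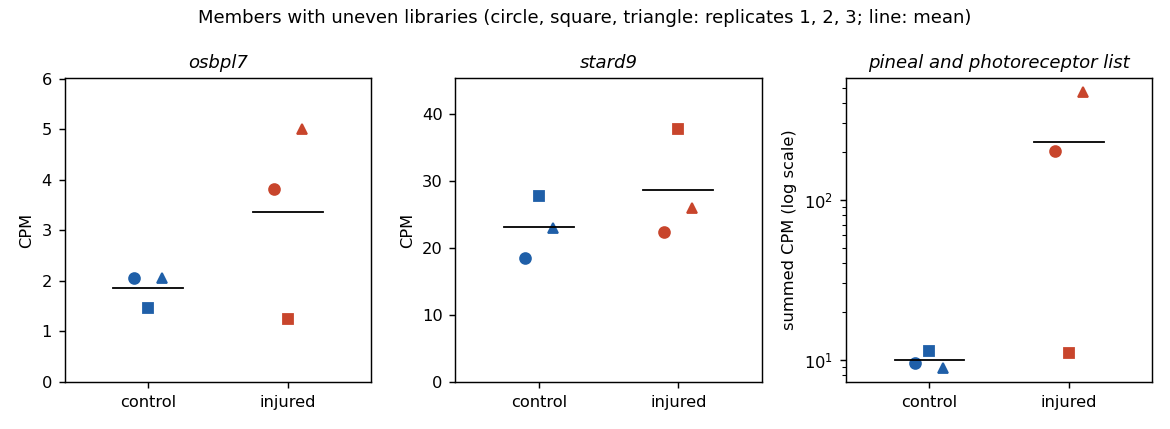
CPM of *osbpl7* and *stard9* and, on a log axis, summed CPM of the pineal and photoreceptor list in each of the 3 control and 3 injured libraries, with the mean as a line. Injured replicates 1 and 3 are high in the list (203 and 470 CPM) and in *osbpl7* (3.83 and 5.01 CPM), while *stard9* is highest in replicate 2 of both conditions.

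The *gramd1* genes encode the Asters, which are anchored in the endoplasmic reticulum and take up plasma membrane cholesterol. By edgeR 0 of the 4 were called, against 11.6% of all genes called higher and 4.82% lower. At an unadjusted edgeR *p*-value below 0.05, 2 were lower and 0 higher. DESeq2 called *gramd1a* lower, as it did 9.16% of all genes. The levels of *gramd1a* were 169, 172 and 181 CPM in control and 161, 154 and 162 CPM in injured replicates 1 to 3, without overlap. The log2FC was -0.13 (adjp = 0.0832, SE 0.043). For *gramd1b* (ENSDARG00000075383), 60.0, 54.1 and 56.7 CPM in control stood against 53.8, 47.0 and 51.2 CPM in injured replicates 1 to 3. These did not overlap either, with a log2FC of -0.17 (adjp = 0.128, SE 0.065).

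The second *gramd1b* gene (ENSDARG00000074258) had a log2FC of -0.16 (adjp = 0.169, SE 0.071). The log2 ratio of both *gramd1b* genes was 0.71 ± 0.019 in control and 0.71 ± 0.044 in injured hemispheres (SD, n = 3 each), a difference of 0.0018. These 3 genes were lower in all pairs with the same replicate number, as were 31.6% of all genes. With the replicate block they were called lower, at adjusted *p* values of 0.0155, 0.00616 and 0.00808, where 16.2% of all genes were. The fourth, *gramd1c*, was scarce, with 12 to 54 reads per library. Its levels were 0.463, 0.264 and 0.155 CPM in control and 0.425, 0.576 and 0.325 CPM in injured replicates 1 to 3, which overlapped, and its log2FC was 0.63 (adjp = 0.369, SE 0.42). The *gramd1* genes summed to 324 ± 8.77 CPM in control and to 293 ± 14.4 CPM after injury (SD, n = 3 each). Neuronal markers were lower in the same libraries, as given above, and their part in these values was not tested.

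The *scp2* genes encode sterol carrier proteins of the peroxisome. By edgeR 0 of the 2 were called, against 11.6% of all genes called higher and 4.82% lower. Both were higher at an unadjusted edgeR *p*-value below 0.05, and 0 were called by DESeq2. The levels of *scp2a* were 21.7, 22.6 and 24.8 CPM in control and 25.4, 26.9 and 27.3 CPM in injured replicates 1 to 3. Those of *scp2b* were 45.7, 42.0 and 45.9 CPM in control and 48.7, 47.4 and 51.2 CPM. For both genes all injured libraries were above all control libraries, by small steps. The log2FC values were 0.21 (adjp = 0.0826, SE 0.068) and 0.14 (adjp = 0.132, SE 0.055). With the replicate block both were called higher (adjusted *p* = 0.00981 and 0.0182), as were 19.9% of all genes.

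Genes that work beside the transfer proteins were read from lists. In the list for lysosomal lipid handling, 10 of 19 tested genes were called higher and 3 lower, with a median log2FC of 0.22, against -0.0038 over all genes. The lysosomal hydrolase genes *lipa*, *smpd1* and *asah1* (ENSDARG00000034817) rose with log2FC values of 0.45 (SE 0.052), 0.45 (SE 0.072) and 0.62 (SE 0.054). The gene for the lysosomal transcription factor Tfeb rose from 4.89 to 11.4 CPM on average, a log2FC of 1.23 (SE 0.15). In the opposite direction went *scarb2a* (-0.52, SE 0.074) and *tmem97* (-0.56, SE 0.092), whose mammalian product binds NPC1. These 6 genes stayed called with each library left out. So did *scarb2c*, which shares the symbol of *scarb2a* but was called higher, with a log2FC of 0.40 (SE 0.063). The other *asah1* gene (ENSDARG00000037091) was not called, with a log2FC of 0.16 (adjp = 0.230, SE 0.080) and overlapping conditions. The microglia and leukocyte markers moved with the genes of this list that rose. Of these markers, 13 of 14 were called higher, with a median log2FC of 1.12. Their sum was 657 to 717 CPM in control against 2127 to 2564 CPM in injured hemispheres. The summed markers of radial glia, oligodendrocytes and endothelium were also higher after injury, with median log2FC values of 0.36, 0.57 and 0.48. The part of any of these cell types in those increases was not tested.

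In the list for sterol sensing, uptake, esterification and efflux, 6 of 21 genes were called higher and 5 lower, with a median log2FC of 0.00067. The efflux pumps *abca1* (ENSDARG00000074635), *abca1b* and *abcg1* had log2FC values of 1.09, 1.54 and 0.75. Those of the sterol sensor *insig1* and of the lipoprotein receptor *ldlra* were -1.19 and -1.14. For ceramide and sphingomyelin synthesis, which *cert1a* and *cert1b* serve, 3 of 20 tested genes were called higher and 2 lower (median 0.020). Among other lipid transfer proteins, 4 of 21 were called higher and 3 lower (median -0.011). They include *pltp* (0.72, SE 0.098) and *gltp* (0.97, SE 0.17), which carry phospholipids and glycolipids, and *pitpna* (ENSDARG00000044091, -0.28, SE 0.039), which carries phosphatidylinositol.

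The last lists cover membrane contact sites and the use of sterols in mitochondria. In the list of contact site anchors and phosphoinositide turnover, 3 of 19 were called higher and 0 lower by edgeR, where 3 were lower at an unadjusted *p*-value below 0.05 and DESeq2 called 3 lower (median -0.045). For sterol use in mitochondria and steroid synthesis, 1 of 16 tested genes (*tspo*) was called higher and 0 lower by edgeR, with 1 lower at an unadjusted *p*-value below 0.05 and 1 by DESeq2 (median 0.027). In all lists of genes beside the transfer proteins, the edgeR counts stand against 11.6% of all genes called higher and 4.82% lower. For the DESeq2 counts these shares were 14.2% and 9.16%, and for unadjusted *p*-values none is given.

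For the other 6 paralogue pairs, the ratios in control and injured libraries overlapped. The log2 ratio of *osbp2a* over *osbp2b* was -1.61 ± 0.31 in control and -2.04 ± 0.25 in injured hemispheres (SD, n = 3 each; exact permutation *p* = 0.3). That of *osbpl3a* over *osbpl3b* was -4.85 ± 0.22 and -4.31 ± 0.39 (exact permutation *p* = 0.2). For *osbpl2a* over *osbpl2b* and *scp2a* over *scp2b* the shifts were -0.046 and 0.066 (exact permutation *p* = 0.5 and 0.6). With *p*-values adjusted over the 7 pairs, the smallest was 0.525, and a test of 3 against 3 libraries could not have passed the threshold. Within pairs of libraries with the same replicate number, the ratio moved in one direction in all 3 for 4 of the 7 paralogue pairs. That of *osbp2a* over *osbp2b* fell by 0.50, 0.41 and 0.39 in replicates 1 to 3, beside 0.56, 0.49 and 0.46 for *cert1a* over *cert1b*. Between both *stard13* genes (ENSDARG00000079542 over ENSDARG00000098954) it fell by 0.19, 0.26 and 0.22, and for *osbpl3a* over *osbpl3b* it increased by 0.63, 0.30 and 0.71. In an exact two-sided sign-flip test over the pairs of libraries, *p* was 0.25 for each of these 4, the smallest that 3 pairs can give. The ratios of *osbpl2a* over *osbpl2b*, of *scp2a* over *scp2b* and between both *gramd1b* genes moved in different directions in the 3 pairs (*p* = 0.75, 0.5 and 1 in the same exact test).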

How the data were processed

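The deposited values are raw counts per gene, without normalization. The authors made them with STAR on the GRCz11 genome and with HTSeq (union mode), and a read with several possible loci was kept at its best one. Versions, strand setting and annotation release are not given in the sources used here, so counts of overlapping genes are uncertain. Between 28.8% and 31.2% of the counts of a library fell on no gene or on several and were left out. Of 32520 identifiers, 29280 had a name in the tables of gene names or supplementary tables. Paralogue letters come from these tables and RefSeq, for 3 members (*osbpl2b*, *osbpl3a*, *cert1b*) by exclusion of the named paralogue.

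The main test was that of edgeR 4.0.16 in R 4.3.3 (glmQLFit and glmQLFTest, filterByExpr, TMM, condition as the only term, threshold 0.05). DESeq2 1.42.0, other scalings, filters and adjustments, and each library left out were alternatives. The SE was taken from the fold change and the F value of its test. The replicates are separate hemispheres per the methods of the study. Deviations from the condition means correlated across genes at 0.519, 0.396 and 0.321 for control and injured libraries with the same number and at -0.361 to -0.0832 for different numbers, so that the numbers were taken to pair the libraries (whether a number marks 1 fish is not given in the sources used here) and a replicate block was an alternative. These correlations run over genes, which are not replicates. Deviations were taken from the mean of each condition, so the negative values for different numbers follow in part from the positive ones. They are not separate evidence of pairing. Paralogue pairs were compared by their log2 ratio, with 0.1 CPM added, in an exact permutation test over libraries. Shifts of this ratio within pairs of libraries, with an exact sign-flip test, were added after seeing the data. Every member found by name is accounted for. Genes of these families without a name in the tables could not be found. Values per library are given for called members and the 2 most changed others of each family, and for *stard4*, *stard9* and *gramd1a*, which were added after their values were seen. A list gene was matched by name or by the symbol without its paralogue letter. The members and lists were chosen with earlier results of these data known. The steps were tested on simulated data. The authors' own fold changes and *p*-values in supplementary tables were not used. One gene of the lists is not reported here by name.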

Additional observations from a re-analysis of the deposited data

How the results depend on the processing

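With each library left out in turn, 3 to 5 of the 40 genes were called higher and 0 to 3 lower. Of the 11 called genes, *npc1*, *npc2.1* and *npc2.2* kept their call each time. With the replicate block, 12 were called higher and 10 lower, against 19.9% and 16.2% of all genes. With Bonferroni adjustment, edgeR called 1 higher and 0 lower, against 0.226% and 0% of all genes. DESeq2 with that adjustment called 4 higher and 0 lower, against 3.58% and 0.803%. With reads scaled by library size alone, 1 was called lower, against 2.08% of all genes. Without injured replicates 1 and 3, an alternative chosen after seeing the data, 4 were called higher and 0 lower. Fewer libraries or a stricter adjustment were part of these alternatives, and the cause was otherwise not tested.

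No called gene changed direction in any alternative. Among genes not called, *osbpl7* reversed to -0.57 without injured replicates 1 and 3, where *osbp* was at -0.024, *osbpl2a* at -0.0021, *osbpl3b* at 0.048, *osbpl8* at -0.12, *stard10* at 0.11 and *stard13* (ENSDARG00000079542) at -0.053. By DESeq2 and with RLE factors, *osbpl2a* was at -0.0077 and -0.0054 and *osbpl8* at -0.015 and -0.013, and with upper-quartile factors *osbpl8* was at -0.0022. With library size alone, *osbpl11* was at 0.030 and *stard10* at 0.019. The summed level of the OSBP family had a ratio of 0.999 with RLE factors. With 1 library left out, the values lay between -0.048 and 0.19 for *osbp2b*, -0.067 and 0.019 for *osbpl11*, -0.013 and 0.030 for *osbpl2a*, -0.12 and 0.00059 for *osbpl3b*, -0.084 and 0.11 for *osbpl8*, -0.11 and 0.079 for *stard10* and -0.00092 and 0.11 for *stard13* (ENSDARG00000079542). Depth limits *stard15*, *gramd1c* and *npc2.2* in control libraries, which held at most 54 reads apart from *npc2.2* in injured libraries.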
